A study of Mus musculus with 7 samples.

Results

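The nuclear genes for the subunits of the mitochondrial respiratory chain and ATP synthase were examined for the histone mark H3K4me1 in mouse zygotes. They were taken from the RefSeq annotation of GRCm38.p6 by symbol, as protein-coding genes on chromosomes 1 to 19, X and Y whose names begin with Ndufa, Ndufb, Ndufc, Ndufs or Ndufv and a number (complex I), are Sdha, Sdhb, Sdhc or Sdhd (complex II), or begin with Uqcr (complex III), Cox4 to Cox8 (complex IV) or Atp5 (complex V). The rule found 87 of 21887 protein-coding genes, 40 of them in complex I, 4 in complex II, 8 in complex III, 18 in complex IV and 17 in complex V. It sorts by name, so that Ndufa4, now counted as a subunit of complex IV, stands with complex I, and Cox7a2l, a factor of supercomplexes, with complex IV.

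The study read a histone mark by CUT&Tag together with the transcriptome in the same single zygote, with H3K27me3 or H3K4me1 as the mark. In CUT&Tag an antibody directs the transposase Tn5 to the mark, and the fragments it cuts are sequenced. The fragments of the 2 H3K4me1 batches were used here, and the other data were not used here. The mothers received 5 IU of gonadotropin from pregnant mare serum, followed after 46 to 48 h by human chorionic gonadotropin, again 5 IU. Zygotes were taken at 23 after that injection, with no unit stated, and stripped of cumulus cells and zona pellucida. The labels name no genetic change or other treatment, each batch was the zygotes of 1 mouse, and strain and age are not given in the labels of these samples.

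Complexes I to IV pass electrons from NADH and succinate to oxygen and, apart from complex II, pump protons across the inner mitochondrial membrane. Complex V, the ATP synthase, uses that gradient to make ATP. A small number of subunits are encoded in mitochondrial DNA, and the rest by the nuclear genes described here. The early embryo lives on mitochondria inherited from the oocyte. H3K4me1 is known from enhancers and from the sequence beside active promoters, where the start site itself carries H3K4me3 instead.

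The table pooled both batches and gave 14 libraries of at least 5000 fragments, with 1404305 fragments in all and 7106 to 197312 per library (median 96240). Library names carry the number 4 (3 libraries) or 5 (11 libraries), which the labels do not tie to a batch, so the pool was 1 sample with no replicate, no test and no SD. The level of a gene is the number of fragments per bp in the gene and 2.5 kb on each side, divided by the autosomal mean of 5.62 fragments per 10 kb, and levels of genes can therefore be compared per length. Intervals in parentheses are exact 95% Poisson intervals for counting error, and the reads carry no molecular identifiers. The zygote label cannot be checked by expression in these fragments. As levels only, 8 oocyte genes had a summed level of 1.53 (1.29 to 1.79) and 8 cumulus and granulosa genes one of 0.966 (0.845 to 1.10). Genes of like length had 1.31, inside the first interval, and 1.17, above the second. Of the 229 fragments of the second list, Cyp19a1 held 87, at a level of 1.44, and Fshr 83, at 0.669. Single genes of the 2 lists overlapped, from 0.933 to 2.99 and from 0.539 to 2.63, with medians of 1.73 and 1.21. Intervals lay above 1 for 4 and 3 genes, where genes of the same length would give 2.01 and 2.26. The part of other cells in the values below was not tested.

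Respiratory chain genes as a group lay at the level of other genes of their length. The 87 genes held 1026 fragments, a summed level of 1.32 (1.24 to 1.40), and their median level was 1.22, with a range from 0 to 4.03. The median over all protein-coding genes was 1.18. Among genes in the same of 10 groups of gene length, with X apart, the median was 1.24 and the summed level 1.33. Intervals lay above 1 for 21 of the 87 genes (24.1%) against 28.1% of all protein-coding genes, and below 1 for 2 genes (2.30%) against 8.6%. Genes of like length would give 20.1 above and 4.46 below, so the counts are near their background. The median respiratory chain gene ranked at percentile 50.6 of genes of its length, and at percentile 51.6 where gene density was also alike. Of genes of like length, about 10% lie over percentile 90 and 10% under percentile 10 by definition. Near this share, 11 of the 87 genes lay over the first and 8 under the second. Most of these genes are short, with a median of 6.82 expected fragments, and 23 of them had fewer than 5 expected, at which depth a low level can hardly be told from 1.

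**Figure D1:**
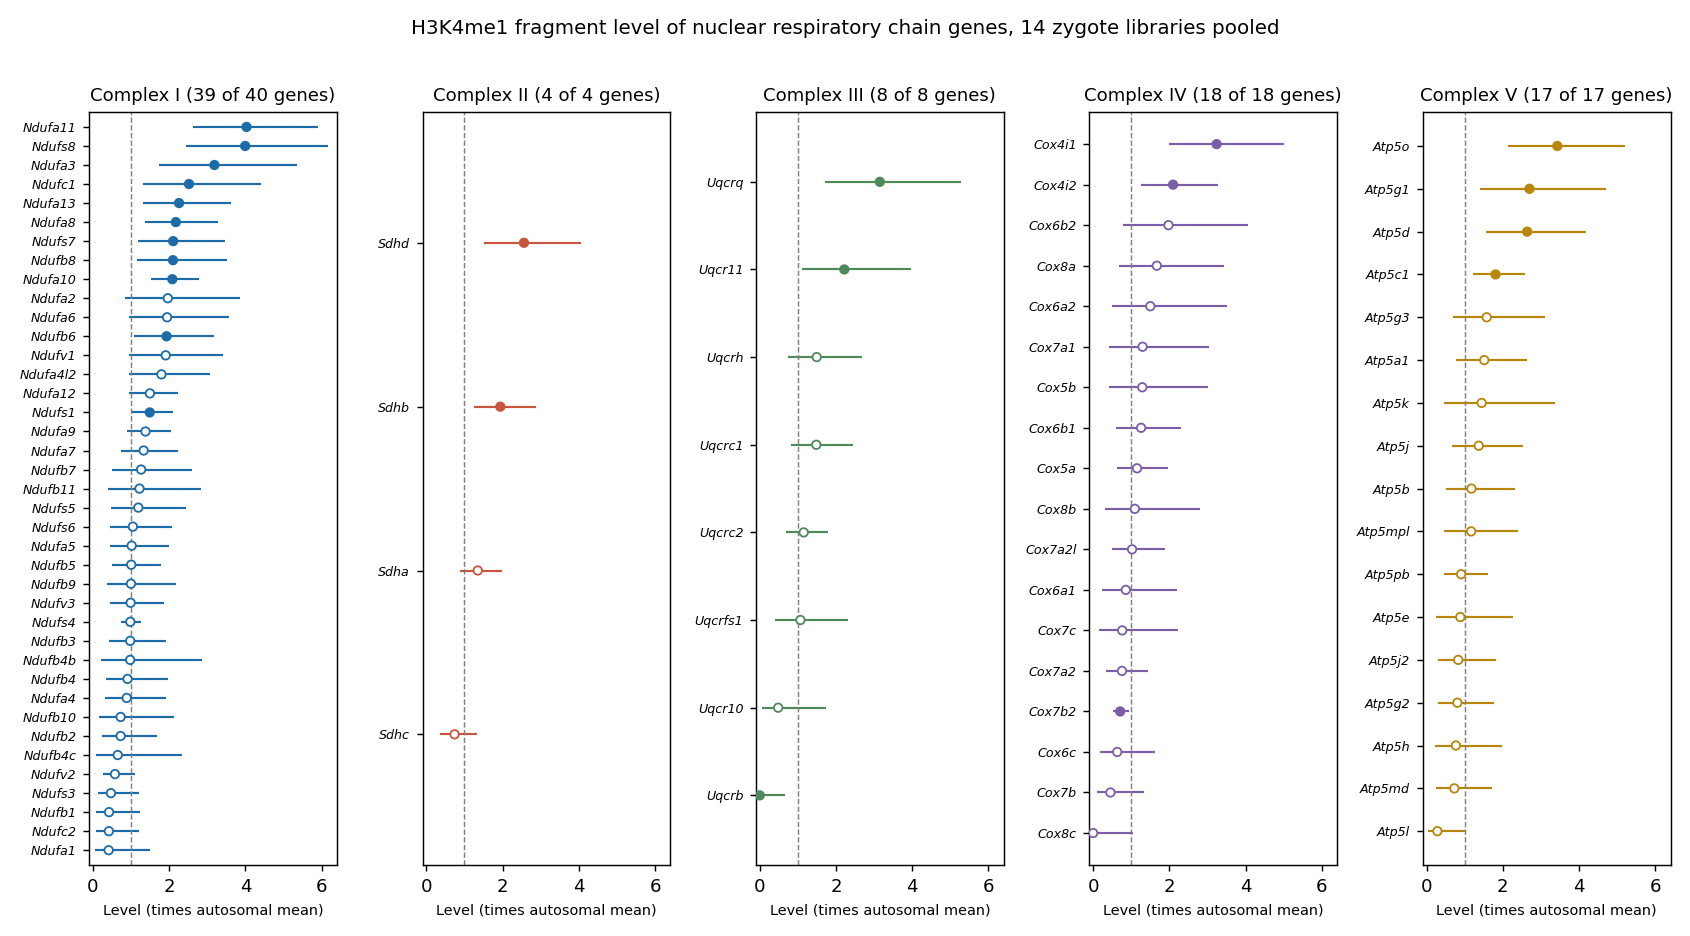
Level of 86 of the 87 genes by complex, as fragments per bp relative to the autosomal mean (x axis, dashed line at 1), with genes on the y axis and lines for the exact 95% Poisson interval. Filled points have an interval that does not hold 1. These are 21 genes above 1, led by Ndufa11 at 4.03 and Ndufs8 at 3.99, and Uqcrb and Cox7b2 below 1.

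In the 13 libraries above 20000 fragments, the 87 genes had their lowest summed level, 1.17, in library 5-4 and their highest, 1.77, in library 5-9 (median 1.30), and it was over 1 in 13 of 13. It was above that of genes of like length in 8 of the 10 libraries named 5 and in 0 of the 3 named 4. The pool of libraries named 4 had a summed level of 1.18 and that of libraries named 5 one of 1.35. The median gene had a level of 0.826 in the first pool and 1.22 in the second. The pool of libraries named 4 holds 252571 fragments, few per gene, so that its intervals for single genes are wide. The intervals of the 2 pools overlapped for each of the 87 genes, which at this depth does not show that the pools agree. The same was not counted for all protein-coding genes.

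**Figure D2:**
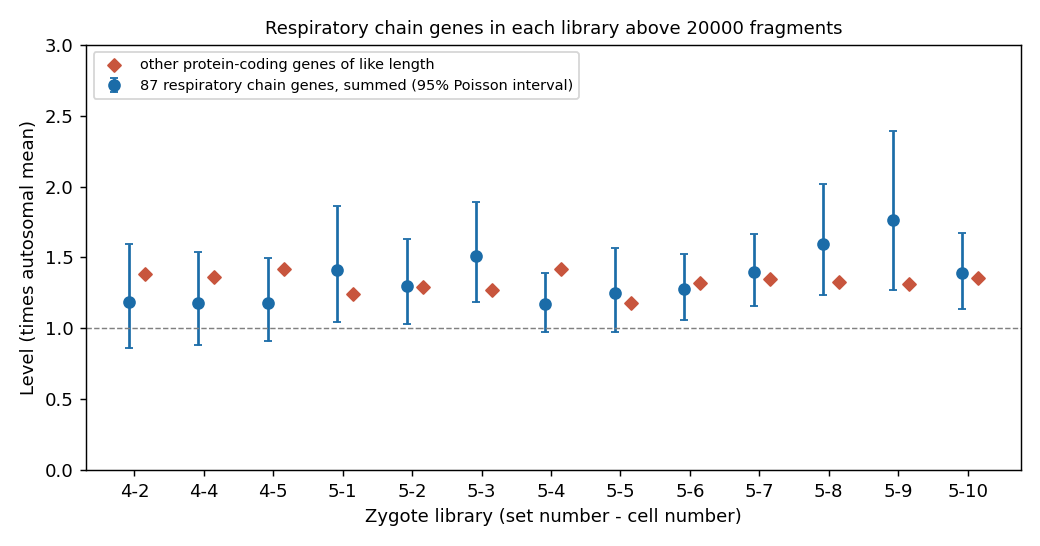
Summed level of the 87 genes (circles, exact 95% Poisson interval) and of other protein-coding genes of like length (diamonds) on the y axis, for the 13 libraries above 20000 fragments on the x axis. All 13 circles lie over 1, from 1.17 to 1.77, and 8 of them lie above the diamond of the same library.

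The highest level belonged to Ndufa11, an accessory subunit in the membrane arm of complex I, on chromosome 17 at 56717762 to 56724248. Its 26 fragments came from 13 of 14 libraries, with 0 to 4 per library and a median of 2, so that no library stood out. The pooled level of 4.03 (2.63 to 5.90) compares with 4.34 from the libraries named 4 alone and 3.96 from those named 5. Ndufs8, a core subunit that carries iron-sulphur clusters, lies on chromosome 19 at 3908863 to 3912774 and had a nearly equal level of 3.99 (2.44 to 6.17) from 20 fragments. These came from 6 libraries only, with a median of 0 and 7 in library 5-10, and the level was 2.88 (1.54 to 4.93) without that library. Atp5o, the subunit that joins the peripheral stalk of ATP synthase to its catalytic head, lies on chromosome 16 at 91925223 to 91931630. It had 22 fragments in 9 libraries, with 0 to 6 per library and a median of 1, and a level of 3.43 (2.15 to 5.19). Libraries 4-2 and 5-4 held 6 fragments each, and the level was 2.62 (1.5 to 4.25) without library 4-2.

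The sequences of the promoters, from 250 bases before to 50 after the gene start, are shown for the 3 highest and the 2 lowest members present in the RefSeq promoter table for GRCm38.p6, because these genes mark the ends of the range. They are written 5′ to 3′ on the strand of the gene. Capitals mark a match to the motif GCGCATGC of NRF1, a factor known to drive respiratory genes, or to its reverse complement GCATGCGC. The positions are chr17:56717512-56717811 (plus strand) for Ndufa11, chr19:3912725-3913024 (minus) for Ndufs8, chr16:91931581-91931880 (minus) for Atp5o, chrX:37191189-37191488 (minus) for Ndufa1 and chr9:44920693-44920992 (minus) for Atp5l. The levels of these genes were 4.03, 3.99, 3.43, 0.411 and 0.285.
Ndufa11: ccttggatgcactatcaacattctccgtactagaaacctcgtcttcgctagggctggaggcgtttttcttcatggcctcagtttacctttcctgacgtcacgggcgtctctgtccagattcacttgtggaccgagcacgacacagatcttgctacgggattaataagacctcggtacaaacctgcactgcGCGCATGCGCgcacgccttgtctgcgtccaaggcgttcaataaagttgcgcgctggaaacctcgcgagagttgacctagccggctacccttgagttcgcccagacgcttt
Ndufs8: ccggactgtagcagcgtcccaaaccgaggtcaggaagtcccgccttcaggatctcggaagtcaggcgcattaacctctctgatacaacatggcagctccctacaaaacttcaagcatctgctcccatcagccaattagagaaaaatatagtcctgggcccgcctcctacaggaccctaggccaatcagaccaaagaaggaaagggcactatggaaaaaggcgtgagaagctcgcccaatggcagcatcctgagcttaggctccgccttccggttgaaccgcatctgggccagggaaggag
Atp5o: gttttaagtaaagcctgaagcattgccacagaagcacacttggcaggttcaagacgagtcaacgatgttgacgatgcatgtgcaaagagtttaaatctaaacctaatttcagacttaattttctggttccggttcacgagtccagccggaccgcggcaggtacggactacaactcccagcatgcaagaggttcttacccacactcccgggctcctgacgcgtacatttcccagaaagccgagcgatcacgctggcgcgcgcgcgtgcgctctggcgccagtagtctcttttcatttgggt
Ndufa1: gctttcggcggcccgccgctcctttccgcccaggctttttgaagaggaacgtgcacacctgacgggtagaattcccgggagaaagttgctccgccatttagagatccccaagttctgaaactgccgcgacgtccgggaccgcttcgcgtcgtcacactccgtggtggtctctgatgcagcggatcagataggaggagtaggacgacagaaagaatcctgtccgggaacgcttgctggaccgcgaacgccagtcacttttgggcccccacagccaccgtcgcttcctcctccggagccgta
Atp5l: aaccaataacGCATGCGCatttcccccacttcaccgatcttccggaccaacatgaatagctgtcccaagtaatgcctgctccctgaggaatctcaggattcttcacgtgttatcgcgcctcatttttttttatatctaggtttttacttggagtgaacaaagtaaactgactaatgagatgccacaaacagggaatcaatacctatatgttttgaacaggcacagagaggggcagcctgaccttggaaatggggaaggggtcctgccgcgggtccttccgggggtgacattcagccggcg
Ndufa11, the highest member, held the motif on both strands, as overlapping matches in the run GCGCATGCGC. Atp5l, the lowest with a promoter entry, held it as well, and the promoters of Ndufs8, Atp5o and Ndufa1 held no match to the 3 motifs searched. The other motifs were CCGGAAGT of the ETS factors, which include GABP, and AAGATGGCG of YY1, each searched on both strands.

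Of the 87 genes, 70 matched an entry of the promoter table. Matches to the NRF1 motif were found in 10 of the 70 promoters (14.3%, 95% Clopper-Pearson interval 7.07 to 24.7) against 3.56% of 17422 protein-coding promoters of the same length. YY1 matches were found in 6 (8.57%, 3.21 to 17.7) against 1.89%, and 5 of these were in complex I. ETS matches were found in 5 (7.14%, 2.36 to 15.9) against 5.27%, so the interval of the ETS motif held the background and those of NRF1 and YY1 did not. This background was not matched for CpG. A ratio of observed to expected CpG above 0.6 was found in 80.0% of the members' promoters and 48.2% of the others. Each of the 3 motifs contains CG, and whether the excess remains among promoters of like CpG was not tested. Uqcr11 held both an NRF1 and an ETS match. The 10 genes with an NRF1 match had a median H3K4me1 level of 1.71, with 4 intervals above 1, and the 60 without one had a median of 1.16, with 13 above. The levels of the 10 spanned nearly the whole range, from 0.285 for Atp5l to 4.03 for Ndufa11. For YY1 the medians were 1.21 with and 1.20 without a match.

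Complex I, which oxidises NADH, had a summed level of 1.39 (1.27 to 1.51) and a median of 1.24 over its 40 genes, with 11 intervals above 1 and 0 below, where genes of like length would give 9.57 and 2.28. Its 7 nuclear core subunits, which hold the flavin and iron-sulphur clusters, had a summed level of 1.43 (1.17 to 1.72), and its 33 accessory subunits one of 1.38 (1.25 to 1.51). The ratio of core to accessory was 1.04 (0.831 to 1.28). Among the core subunits, Ndufs8 was followed by Ndufs7, a carrier of the last iron-sulphur cluster before ubiquinone, with a level of 2.10 (1.18 to 3.47). Ndufv1, which binds NADH and flavin, had 1.91 (0.953 to 3.41), and Ndufs1, the largest subunit, had 1.49 (1.02 to 2.10). The lowest core subunits were Ndufv2 with 0.577 (0.264 to 1.09) and Ndufs3 with 0.471 (0.128 to 1.21), and their intervals did not overlap that of Ndufs8. The intervals of Ndufs7 and Ndufs1 reached below 1 without the library of most fragments. Their levels were then 1.79 (0.923 to 3.12) and 1.24 (0.788 to 1.87). Of the 32 fragments of Ndufs1, 9 came from library 5-4, and the 15 of Ndufs7 were spread over 8 libraries with at most 3 in any.

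Among the accessory subunits, Ndufa3 of the membrane arm had the next highest level after Ndufa11, 3.19 (1.74 to 5.35), from 14 fragments in 8 libraries with 0 to 4 per library and a median of 1. At the low end, Ndufc2 had 0.417 (0.0860 to 1.22) and Ndufa1 had 0.411 (0.0498 to 1.49), each from 3 or fewer fragments, and neither interval excluded 1. Ndufa1 lies on X, where the chromosome as a whole had a level of 0.554 and protein-coding genes a median of 0.683. The other members on X were Ndufb11 of complex I with 1.22 (0.396 to 2.85) and Cox7b of complex IV with 0.454 (0.0937 to 1.33). The 3 X-linked genes together had a summed level of 0.642 (0.308 to 1.18), against 0.726 for X-linked genes of like length. Ndufb4b and Ndufb4c, chosen after their values were seen, are short copies of Ndufb4, of 471 and 485 bp. They held 3 and 2 fragments, and reads of near-identical copies could be split between them and Ndufb4 by the mapping.

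Complex II is the succinate dehydrogenase of the citric acid cycle and the only complex with all its subunits encoded in the nucleus. It had a summed level of 1.48 (1.17 to 1.85), against 1.36 for genes of like length. Its 4 genes were spread widely. Sdhd, a membrane anchor, had 18 fragments in 8 libraries and a level of 2.56 (1.52 to 4.05), and Sdhb, the iron-sulphur subunit, had 25 in 10 libraries and a level of 1.94 (1.26 to 2.86). Sdha, the flavoprotein that binds succinate, had 1.35 (0.873 to 1.99). Sdhc, the other membrane anchor, had 0.739 (0.369 to 1.32), and its interval did not overlap that of its partner Sdhd. This separation rested on 1 library. Without library 5-8, which held 5 of its 18 fragments, Sdhd had 1.96 (1.04 to 3.35), an interval that overlaps that of Sdhc. Libraries named 4 held 1 fragment each of Sdhd and Sdhb, with levels of 0.798 (0.0202 to 4.45) for Sdhd and 0.435 (0.0110 to 2.43) for Sdhb. In libraries named 5 the levels were 2.94 (1.71 to 4.71) and 2.27 (1.45 to 3.37), and the intervals of the pools overlapped for both genes. Sdhb lost its call without library 5-10, with 1.64 (0.986 to 2.56).

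Complex III, the cytochrome bc1 complex, had a summed level of 1.33 (1.05 to 1.66) over 8 genes, against 1.37 for genes of like length. In libraries named 5 it had 1.29 (0.987 to 1.65), and relative to the mean of autosomal protein-coding windows 1.13 (0.895 to 1.41). Both of these intervals held 1. Its small subunits lay at both ends of its range. Uqcrq had 14 fragments in 8 libraries, with 0 to 3 per library and a median of 1, and a level of 3.15 (1.72 to 5.28). Uqcrb, a small subunit near the ubiquinone site, had 0 fragments in all 14 libraries where 5.49 were expected. A count of 0 allows a level of up to 0.546, taken at 3 fragments, and the upper end of its exact interval is 0.671. How many of its bases reads can be assigned to was not tested. Uqcrb and Cox8c of complex IV were the only members with 0 fragments.

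Complex IV, cytochrome c oxidase, had the lowest summed level, 1.04 (0.889 to 1.21), against 1.27 for genes of like length. Complex I over complex IV was 1.33 (1.12 to 1.59), and higher in 9 of 13 libraries. It was 2.11 (1.26 to 3.72) in libraries named 4, where complex IV had a summed level of 0.609 (0.361 to 0.963), and 1.24 (1.03 to 1.51) in libraries named 5, where complex IV had 1.13 (0.959 to 1.32). Complex II over complex IV was 1.43 (1.08 to 1.87), and complex IV over complex V was 0.739 (0.594 to 0.919). The other 7 of the 10 ratios between complexes had intervals that held 1. The low sum of complex IV rested on 1 gene. Cox7b2, the testis isoform of subunit 7b, spans 105383 bp of chromosome 5 and held 44 of the 172 fragments of the complex, at a level of 0.709 (0.515 to 0.952). Its fragments came from 13 libraries, with at most 7 in any. Without it complex IV had 1.23 (1.03 to 1.47), and complexes I, II, III and V over complex IV were 1.12 (0.923 to 1.37), 1.20 (0.895 to 1.60), 1.08 (0.802 to 1.44) and 1.14 (0.899 to 1.44), none of which excluded 1.

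**Figure D3:**
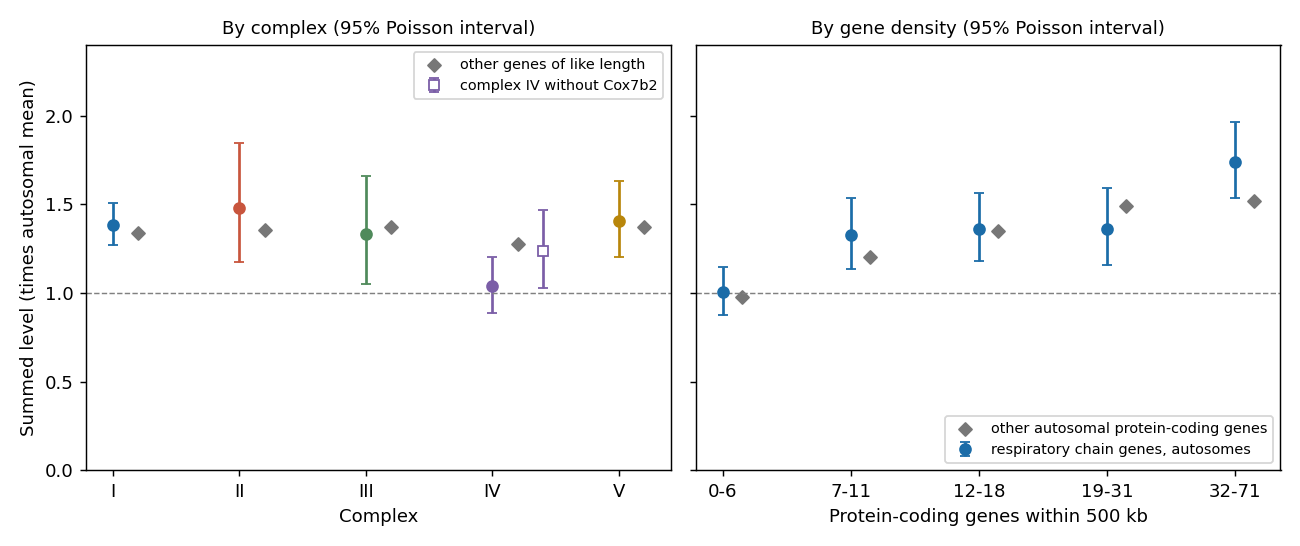
Left, summed level (y axis) of each complex (circles, exact 95% Poisson interval) with other genes of like length (diamonds), and complex IV without Cox7b2 (open square), which rises from 1.04 to 1.23. Right, summed level of the autosomal members (circles, exact 95% Poisson interval) and of other autosomal protein-coding genes (diamonds) in 5 groups of gene density (protein-coding genes within 500 kb), which rises from 1.00 to 1.74 for the members.

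Several subunits of complex IV have a ubiquitous form and forms known from single tissues, and the ubiquitous forms did not have uniformly higher levels. Cox4i1, the ubiquitous subunit 4, had 20 fragments in 8 libraries, with 0 to 5 per library and a median of 1, and a level of 3.24 (1.98 to 5.00). Cox4i2, its lung form, had 2.10 (1.26 to 3.27), with 8 of 19 fragments from library 5-4 and 1.41 (0.704 to 2.52) without it. The ratio of the pair was 1.55 (0.783 to 3.06). For subunit 6a, the ubiquitous Cox6a1 had 0.857 (0.233 to 2.19) and the muscle form Cox6a2 had 1.5 (0.487 to 3.50). For subunit 6b, Cox6b1 had 1.26 (0.603 to 2.31) and the testis form Cox6b2 had 1.98 (0.794 to 4.07). For subunit 7a, Cox7a2 had 0.756 (0.346 to 1.44) and the muscle form Cox7a1 had 1.30 (0.421 to 3.03). For subunit 8, the ubiquitous Cox8a had 1.67 (0.671 to 3.44) and the muscle form Cox8b had 1.09 (0.298 to 2.80). The testis form Cox8c had 0 fragments, with a limit of 0.857 taken at 3 fragments and an upper end of the exact interval of 1.05, so it was not separable from 1. Each ratio within a pair that could be formed had an interval that held 1. Summed, the 6 ubiquitous over the 7 restricted forms gave 1.35 (0.941 to 1.93), and 0.861 (0.560 to 1.33) without Cox7b2. With 5 kb on each side of the genes the first ratio was 1.39 (1.02 to 1.89), an interval that no longer held 1.

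Complex V had a summed level of 1.40 (1.20 to 1.63) over 17 genes, with 4 intervals above 1, where genes of like length would give 3.91. The 5 subunits of the catalytic F1 head had 1.69 (1.32 to 2.13), the 3 genes of the membrane c ring 1.54 (1.00 to 2.25), the 4 of the peripheral stalk 1.52 (1.11 to 2.01) and the 5 other membrane subunits 0.819 (0.530 to 1.21). The intervals of the F1 head and of the other membrane subunits, from 72 and 25 fragments, did not overlap in the pool, and genes of like length had 1.38 and 1.34. They overlapped in libraries named 5 alone, with 1.60 (1.21 to 2.08) and 0.837 (0.518 to 1.28). The same held in libraries named 4, with 2.11 (1.20 to 3.42) and 0.735 (0.200 to 1.88). The F1 head over the peripheral stalk was 1.12 (0.762 to 1.65). Within F1, Atp5d, the delta subunit of the central stalk, had 18 fragments in 10 libraries, with 0 to 3 per library and a median of 1, and a level of 2.64 (1.56 to 4.17). Atp5c1, the gamma subunit that turns inside the head, had 1.81 (1.22 to 2.58). Atp5a1 and Atp5b, the alpha and catalytic beta subunits, had 1.51 (0.782 to 2.64) and 1.18 (0.509 to 2.32), and Atp5e, the epsilon subunit, had 0.887 (0.242 to 2.27). Of the c ring, Atp5g1 had 2.70 (1.40 to 4.72) from 12 fragments in 7 libraries, with 0 to 4 per library and a median of 0.5, and 2.00 (0.864 to 3.94) without library 5-10. The lowest gene of the complex was Atp5l, subunit g of the membrane part, with 2 fragments where 7.02 were expected and a level of 0.285 (0.0345 to 1.03).

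Gene surroundings moved with the levels of the members as they did for other genes. Counting protein-coding neighbours within 500 kb, the summed level of the 84 autosomal members was 1.00 (0.875 to 1.15) in the sparsest of 5 groups and 1.74 (1.54 to 1.96) in the densest. Other autosomal protein-coding genes had 0.978 and 1.52 in the same groups, so that in the densest group the value of other genes lay just under the members' interval. Members that lay within 500 kb of each other included genes of high and of moderate level. Atp5d, Ndufs7 and Uqcr11, of 3 different complexes, lie within 257 kb of each other on chromosome 10, with levels of 2.64, 2.10 and 2.22. Ndufs8 and Ndufv1 lie 94.7 kb apart on chromosome 19, with 3.99 and 1.91. Cox7a1 and Cox6b1 lie 431 kb apart on chromosome 7, with 1.30 and 1.26. The windows of no 2 members overlapped, and the windows of 60 members overlapped another protein-coding gene. Those 60 had a summed level of 1.38 (1.28 to 1.49) and the 27 others 1.22 (1.10 to 1.35), with a ratio of 0.885 (0.777 to 1.01) for the second over the first.

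Fragments of the members lay more on the side after the gene than on the side before it. Over the 70 genes with a strand, the 2.5 kb upstream of the start held 98 fragments, a level of 0.996 (0.809 to 1.21), and the 2.5 kb downstream of the end held 168, a level of 1.71 (1.46 to 1.99). The gene bodies had 1.28 (1.18 to 1.39). Genes of like length had 1.14 upstream, 1.37 in the body and 1.34 downstream. Downstream over upstream was thus 1.71 (1.33 to 2.22) for the members and 1.18 for genes of like length. The downstream side was higher in 10 of 13 libraries, equal in library 5-9 and lower in libraries 4-2 and 5-8. By gene, 38 members had more fragments downstream, 19 more upstream and 13 the same number, and of other genes of like length 43.1% had more downstream and 32.7% more upstream. This comparison was chosen after the data were seen.

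Downstream over upstream was 1.98 (1.34 to 2.95) in complex I and 1.75 (1.04 to 3.02) in complex V, whose interval holds the 1.18 of genes of like length. Complexes II, III and IV had 1.25 (0.444 to 3.64), 1.14 (0.362 to 3.70) and 1.5 (0.796 to 2.89). These came from fewer fragments, were not separable from 1, and their intervals overlapped those of complexes I and V. Ndufa3 had 10 fragments downstream and 0 upstream, Atp5o had 9 and 1, and Atp5d had 7 and 2. Without these 3 genes the ratio was 1.49 (1.14 to 1.96), an interval that holds the value of genes of like length. Another protein-coding gene lay in 32 of the 70 upstream flanks and 20 of the downstream flanks. In flanks without one the ratio was 1.58 (1.13 to 2.21), and this interval too holds 1.18. Libraries named 4 gave 1.33 (0.694 to 2.61), from 24 and 18 fragments.

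For steps of 1 kb, the start was that of the RefSeq promoter entry, while the upstream flank above was measured from the boundary of the gene. These positions differ for some genes, as for Cox7a2 on chromosome 9, at 79759853 and 79771422. The level of the members was lowest just before the start of the promoter entry. It was 0.839 (0.577 to 1.18) in the last kb before the start, over 1 in 3 of 13 libraries, and rose to 1.86 (1.45 to 2.33) at 3 to 4 kb after it, over 1 in 11 of 13. Genes of like length went from 1.10 to 1.43 over the same steps. In the first kb after the gene end the members had 1.88 (1.48 to 2.36), against 1.35. Within 500 bp of the start the summed level was 1.12 (0.812 to 1.5), against 1.20 for genes of like length. There 39 of the 70 members had no fragment. Few fragments are expected in so small a window, and genes without a fragment were not counted among other genes.

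**Figure D4:**
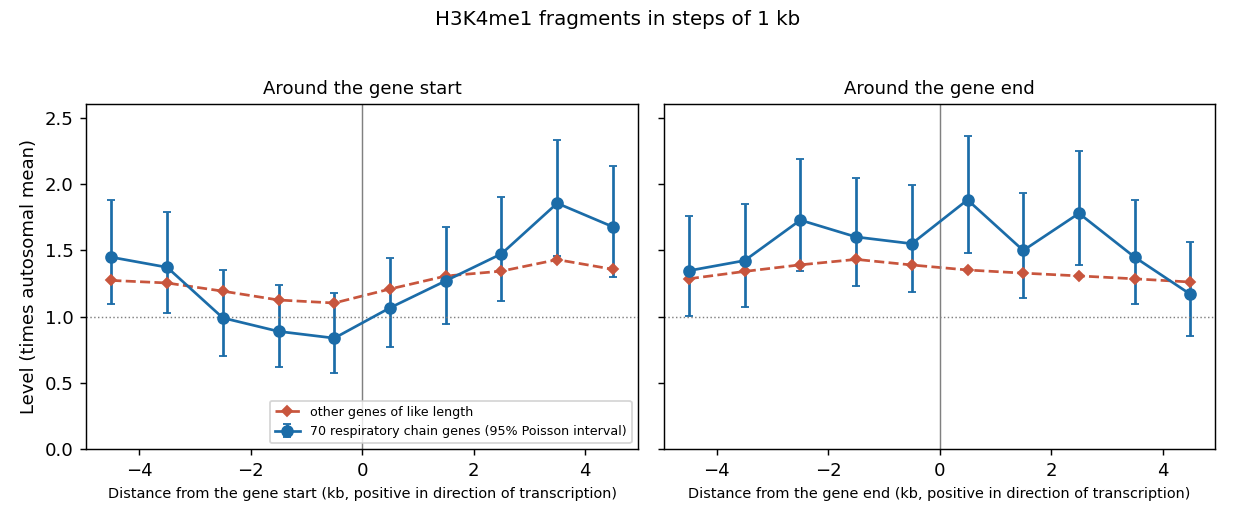
Level (y axis) of 70 respiratory chain genes with a strand (circles, exact 95% Poisson interval) and of other genes of like length (diamonds) in steps of 1 kb around the gene start (left) and the gene end (right), with distance in kb on the x axis, positive in the direction of transcription. The start is that of the RefSeq promoter entry. The members are lowest in the last kb before the start, at 0.839, and reach 1.88 in the first kb after the gene end.

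The promoters of the members were richer in CpG than those of other genes. The ratio of observed to expected CpG exceeded 0.6 in 56 of the 70 (80.0%), against 48.2% of 17422 protein-coding promoters. In those 56 genes the upstream flank had a level of 0.890 (0.693 to 1.12) and the downstream flank 1.68 (1.40 to 1.99). Other genes of like length with such promoters had 1.16 upstream, above the members' interval, and 1.49 downstream, inside it. The 14 members at or under 0.6 had 1.42 (0.946 to 2.06) upstream and 1.83 (1.28 to 2.53) downstream. Other genes of like length at or under 0.6 had 1.14 upstream, inside the members' interval, and 1.23 downstream, just under it.

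The other nuclear genes of the pathway, on lists written by role, had median levels of 1.37 for assembly factors and 1.44 for regulators, against 1.22 for the subunits, though the assembly factors lay lower when summed. Of 43 assembly factors, 14 had intervals above 1 and 2 below, where genes of like length would give 11.9 and 2.72, so these counts are near their background. Their summed level was 1.14 (1.07 to 1.22), and the subunits over these factors gave 1.15 (1.05 to 1.26). The groups differ in gene length, and genes of like length had summed levels of 1.33 for the subunits and 1.23 for the assembly factors. The highest were Ndufaf8 of complex I assembly with 2.74 (1.31 to 5.04), Uqcc2 of complex III assembly with 2.63 (1.69 to 3.92), and Cox19, a copper-handling factor of complex IV, with 2.59 (1.54 to 4.10). The lowest were Coa3, an assembly factor of complex IV with 0 fragments, a limit of 0.893 at 3 fragments and an upper end of the exact interval of 1.10, and Cox16, also of complex IV, with 0.542 (0.387 to 0.738). Of 10 regulators of respiratory genes, 6 had intervals above 1 and 0 below. These genes are long, and genes of like length would give 3.58 above and 0.959 below. Of 4 subunits and carriers outside the symbol rule, 2 had intervals above 1, where genes of like length would give 0.880. These were Cyc1, the cytochrome c1 of complex III, with 2.53 (1.26 to 4.52) and Ndufab1, the acyl carrier subunit of complex I, with 1.95 (1.22 to 2.96). The other 2, Cyct and Cycs, had 0.927 (0.340 to 2.02) and 0.593 (0.122 to 1.73).

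Of the 21 members with intervals above 1, 13 kept them without any 1 library. The other 8, which lost them without the library of most fragments, were Atp5g1, Cox4i2, Ndufb6, Ndufb8, Ndufs1, Ndufs7, Sdhb and Uqcr11. That library is picked by its count in the same gene, so leaving it out tends to lower the level. Calls kept and lost were not counted for other genes. No base in the members' windows was covered by more than 3 fragments of 1 library. Fragments shorter than 120 bp made up 5.56% (4.23 to 7.14) of the members' fragments, against 5.04% in all protein-coding windows.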

How the data were processed

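Single mouse zygotes were profiled for H3K4me1 by CUT&Tag. The authors deposited 1 table of fragments with a library name and a count, which was 1 in every line, and fragments per region were counted here from the lines. The build was mm10, per the submitters' processing notes. For the aligner, duplicate removal and filters, the steps were not given in the sources used here. Both batches share the table and no column separates them, so it was treated as 1 sample. Libraries of 5000 fragments or more were kept, and fragments were placed by midpoint. Gene positions, promoters and strands came from RefSeq GRCm38.p6 tables. Genes of like length are all other protein-coding genes in the same of 10 length groups, autosomes and X apart. Python 3.11.15, numpy 2.4.6, pandas 2.3.3 and scipy 1.17.1 were used, and the counting was tested on simulated data. The members and lists were chosen with earlier results of these data known. Named genes are the 8 highest and 5 lowest members, the extremes of each complex, all of complex II, and core and F1 subunits. Isoform sets of complex IV and members on X or with 0 fragments are named too. Of other pathway genes, the 3 highest and 2 lowest are named, and the 4 subunits and carriers outside the symbol rule. The values of 1 member are not reported here. Windows, weights, libraries, reference level and fragment classes were varied.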

Additional observations from a re-analysis of the deposited data

How the results depend on the processing

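Of 327 values of 13 results under other settings, 301 kept their side of 1 or moved within the counting interval or, for counts, 1.5 times. This count is no measure of robustness. Many settings leave out 1 library and share nearly all fragments with the pool, and ratios and percentiles cannot change with the reference level. Relative to protein-coding windows, the summed level was 1.12, complex I 1.18, complex IV 0.883 and complex V 1.19, and 5 genes lay below 1. With no other gene in the window, the summed level was 1.22, 7 genes lay above 1 and 1 below, and complexes II, IV and V had 1.94, 0.839 and 1.88. Libraries named 4 alone gave a median of 0.826, a summed level of 1.18, 8 genes above and 0 below, 0.947 for complex II, 0.609 for complex IV, 2.11 for complex I over IV, a flank ratio of 1.33, and levels of 0.435 for Sdhb, 0.798 for Sdhd and 0.841 for Ndufb8. Libraries named 5 alone gave 1 gene below. With 5 kb on each side 4 genes lay below 1 and ubiquitous over restricted forms of complex IV was 1.39, whose interval excludes 1 while that at 2.5 kb holds it. Without Cox7b2, added after the data were seen, complex IV had 1.23 and complex I over IV 1.12. Leaving out each library gave 1 to 3 genes below 1 and 18 to 25 above. Libraries named 4 and genes without neighbours leave fewer fragments or genes, and the cause of the other changes was not tested. Equal weighting of libraries gives no count of intervals. No paired analysis was possible because both batches share 1 table and no library is tied to a batch. Depth limits single genes, with a median of 6.82 expected fragments, and there is no replicate or background control.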
